A study of Mus musculus with 24 samples.

Results

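Progranulin and 4 genes whose products meet it on its way to the lysosome were followed in mouse frontal cortex. The 5 genes, Grn, Sort1, Psap, Tmem106b and Lrp1, were chosen by name for this role, out of 52352 annotated genes in the series. They carry 34 of the 149444 transcripts quantified. Poly-A RNA of 24 mice was sequenced in bulk, 1 library per mouse, with 6 mice (3 females and 3 males) in each of 4 groups of littermates. The groups were Grn+/- mice with a human TDP-43 transgene (hTDP), aged 9.44 to 10.07 months, Grn+/- mice without it, aged 8.19 to 10.79 months, Grn+/+ mice with it, aged 9.44 to 10.07 months, and Grn+/+ mice without it, aged 9.44 to 10.79 months. The labels do not say which part of Grn is changed in the targeted allele or which promoter drives the transgene. All brains had been flushed with saline and frozen before the cortex was dissected.

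Progranulin, the product of Grn, is a secreted glycoprotein that is cut into granulin peptides inside lysosomes, and loss of a working copy of the human gene causes frontotemporal dementia with deposits of TDP-43. In brain, microglia express much of it, and neurons express it too. Sortilin, the product of Sort1, is the surface receptor that binds progranulin and carries it to the lysosome. Prosaposin, the product of Psap, binds progranulin and can bring it to the lysosome through its own receptors, of which Lrp1, a large endocytic receptor of the lipoprotein receptor family, is the best known together with the mannose 6-phosphate receptor. Tmem106b encodes a lysosomal membrane protein, and variation at the human gene changes the risk of dementia in carriers of GRN mutations.

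Among these genes 2 have an internal exon that annotated protein-coding transcripts either hold or skip, with reads assigned to the forms that hold it. The exons are shown because the shares of reads assigned to those forms are compared further on. The Sort1 exon of 99 bases (exon 18 of the 21 of transcript Sort1-203) lies at chr3:108355472-108355570 on the plus strand of GRCm38, and Sort1-201 skips it. It is a known splicing target of TDP-43, and its inclusion rises in mouse brain when TDP-43 is depleted. The Psap exon of 9 bases (exon 8 of the 15 of Psap-205) lies at chr10:60297537-60297545 on the plus strand, in the part that encodes saposin B. Both have a length that is a multiple of 3, so skipping keeps the reading frame. The lines give the spliced GENCODE M21 sequence with 30 bases of the neighbouring exons in lower case and the alternative exon in capitals, then the junction without it.
Sort1 with the exon: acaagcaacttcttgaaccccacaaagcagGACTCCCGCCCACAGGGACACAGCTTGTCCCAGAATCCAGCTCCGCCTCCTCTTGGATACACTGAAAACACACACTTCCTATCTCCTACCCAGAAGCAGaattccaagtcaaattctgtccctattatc
Sort1 without it: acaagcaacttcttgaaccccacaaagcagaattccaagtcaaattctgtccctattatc
Psap with the exon: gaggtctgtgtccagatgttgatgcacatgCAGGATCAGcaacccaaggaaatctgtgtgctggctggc
Psap without it: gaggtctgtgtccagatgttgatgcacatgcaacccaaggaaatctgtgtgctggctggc

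Libraries held 61445842 to 100859149 estimated reads. Replicate 2 of the hTDP Grn+/+ group stood apart: it listed 17669 genes above 0, against 22269 to 23272 in the other libraries, so the results it changes most are also given without it. Human TARDBP reads numbered 4328 to 8162 in hTDP libraries and 0 to 2 in nontransgenic ones. Summed levels of 8 excitatory neuron markers lay between 6401 and 7870 CPM (read counts scaled for library size by TMM) in all libraries. Those of 6 inhibitory neuron markers lay between 797 and 996 CPM, so neuronal markers of the labelled tissue were present throughout. Summed choroid plexus markers lay between 2.33 and 14.1 CPM. Summed striatum and olfactory bulb markers lay between 110 and 177 CPM. Their median was 152 CPM in hTDP Grn+/- mice, against 131.5 to 137.8 CPM in the other groups. Other lists varied more, with 1107 to 5119 CPM for 8 oligodendrocyte markers and 10.9 to 150.3 CPM for 5 blood markers. Replicate numbers only name libraries in their order of deposit, and since bulk RNA was measured, fewer cells of a type and less RNA per cell cannot be told apart for any gene below.

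All 5 genes passed the filter on low counts and were tested among 18239 genes with edgeR's quasi-likelihood test, called at a Benjamini-Hochberg adjusted p under 0.05 over all genes. Grn was lower in Grn+/- mice, and none of its partners was called in any of the 9 comparisons made. Levels per length, in TPM (read shares adjusted for transcript length), put the main transcript of Psap first, with a median of 1077 TPM over the 24 libraries for Psap-205. Sort1-201 followed at 171 TPM. Tmem106b-201 at 58.4 TPM and Lrp1-201 at 57.4 TPM overlapped each other, and Grn-201 was at 28.2 TPM. The range of Grn-201, between 11.2 and 52.9 TPM over both genotypes, overlapped that of Lrp1-201, between 46.3 and 67.8 TPM.

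**Figure D1:**
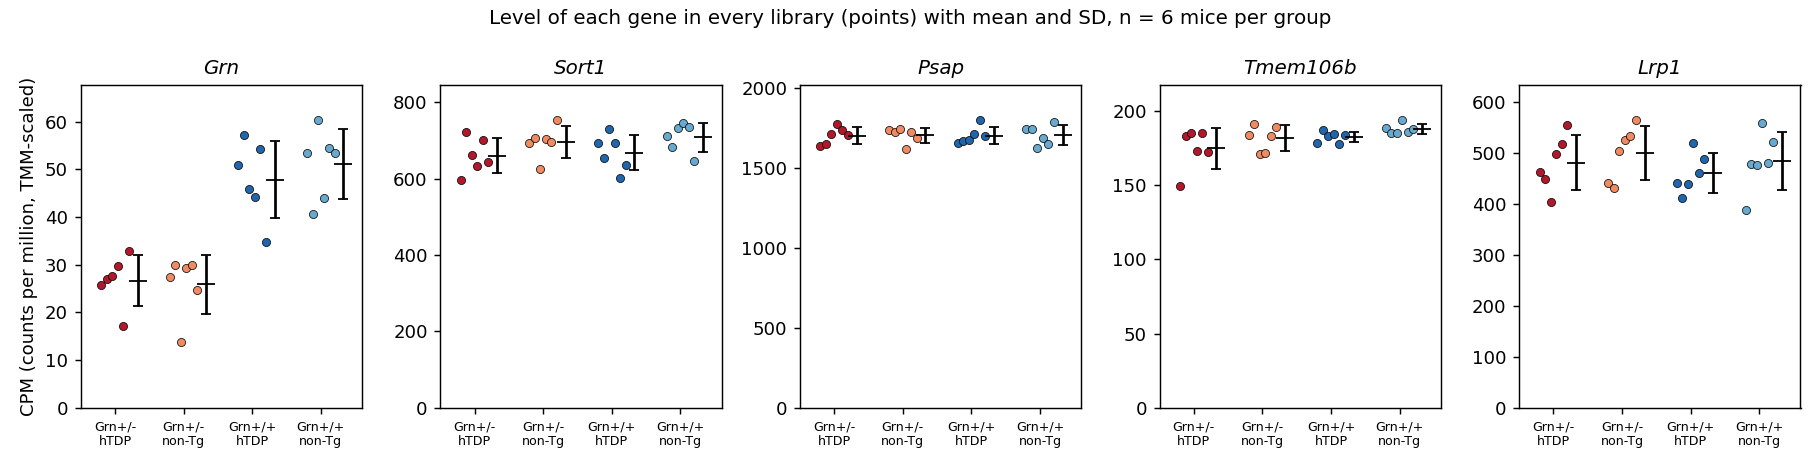
CPM of Grn, Sort1, Psap, Tmem106b and Lrp1 (vertical axis, from 0) in every library (points), by group, with the mean and SD of 6 mice beside them. Grn lies between 13.8 and 32.9 CPM in the 12 Grn+/- libraries and between 34.7 and 60.5 CPM in the 12 Grn+/+ libraries, while the groups of every other gene overlap.

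Grn (chr11:102430315-102437048, plus strand, GRCm38) checks the labels. In hTDP Grn+/- mice it had a lowest, median and highest level of 17.2, 27.2 and 32.9 CPM, and in hTDP Grn+/+ mice 34.7, 48.3 and 57.2 CPM. In nontransgenic Grn+/- mice the same values were 13.8, 28.4 and 30.01 CPM, against 40.6, 53.4 and 60.5 CPM in nontransgenic Grn+/+ mice. The 12 Grn+/- libraries did not overlap the 12 Grn+/+ libraries, as was so for 2 of 18239 genes (0.011%). The lowest Grn+/+ library, replicate 6 of the hTDP group at 34.7 CPM, lay close to the highest Grn+/- library, replicate 6 of the hTDP group at 32.9 CPM.

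Averaged over both backgrounds, Grn fell by 0.91 on the log2 scale (SE 0.117, 95% interval -1.15 to -0.67, edgeR adjusted p = 0.000614), a fold of 0.531. It was the only one of the 5 genes called there, where 0.0219% of all genes were called, and its p ranked 2 among all genes. In nontransgenic mice alone the log2 change was -0.98 (SE 0.165, edgeR adjusted p = 0.0440), and 1 of the 5 genes was called, against 0.011% of all genes. In hTDP mice alone it was -0.84 (SE 0.165, unadjusted p = 3.6e-05, edgeR adjusted p = 0.254), and none of the 5 was called, against 0.00548% of all genes. When 1 library at a time was left out, the average was called in all 24 fits. The call in nontransgenic mice stood in 5 of 24, without replicates 1, 5 or 6 of the hTDP Grn+/- group, replicate 2 of the hTDP Grn+/+ group or replicate 2 of the nontransgenic Grn+/+ group, and was lost in 19, with an adjusted p of up to 0.198. It was also lost with age as a linear term (-0.96, edgeR adjusted p = 0.177) and as a factor (-1.42, edgeR adjusted p = 0.505), these groups differing in age. Only replicates 2 and 3 of the nontransgenic Grn+/- group share an age with another group. The value with age as a factor therefore rests on them within that group. Exact two-sided permutation of the 6 against 6 CPM values gave p = 0.0021645 in nontransgenic and in hTDP mice, the smallest p that 6 against 6 mice allow.

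Between hTDP and nontransgenic mice of either genotype, Grn differed by less than its spread. The log2 change of hTDP against nontransgenic mice was 0.05 (SE 0.165, 95% interval -0.29 to 0.39) in Grn+/- mice and -0.09 (SE 0.163, interval -0.43 to 0.25) in Grn+/+ mice, with none of the 5 genes called, against 0.0219% and 0.0329% of all genes. The transgene change in Grn+/- mice lay 0.14 above the one in Grn+/+ mice (interaction, SE 0.232, interval -0.34 to 0.62, edgeR adjusted p = 1). No gene was called for the interaction (0%), although 434 (2.38%) had an unadjusted p under 0.05. Mice with both changes against mice with neither had a log2 change in Grn of -0.93 (SE 0.165, edgeR adjusted p = 0.0246), with 1 of the 5 genes called, against 0.0768% of all genes. That call stood in 17 of the 24 fits that left out 1 library, and was lost with age as a factor (edgeR adjusted p = 0.104) and in a fit of only these groups (edgeR adjusted p = 0.0506). Between females and males, none of the 5 was called, against 0.0713% of all genes.

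**Figure D2:**
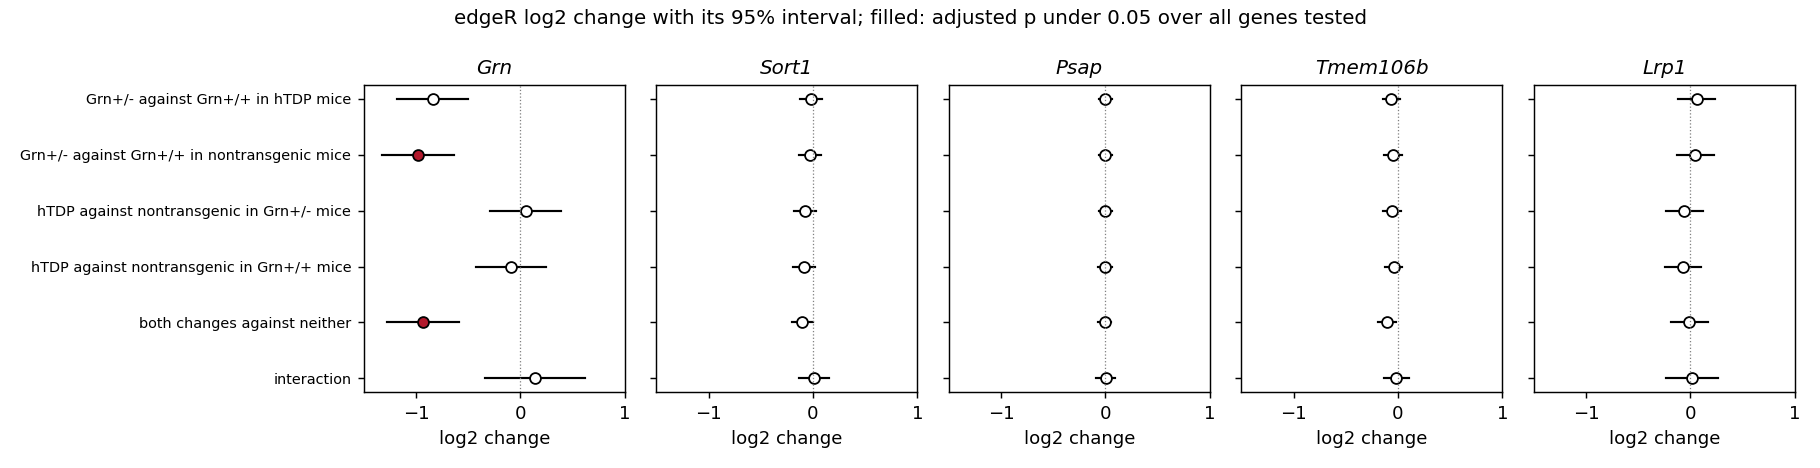
edgeR log2 change (horizontal axis) of each gene in 6 comparisons (rows), with its 95% interval as a line; filled points have an adjusted p under 0.05 over 18239 genes. Only Grn has intervals far from 0, at -0.84 and -0.98 for Grn+/- against Grn+/+ and at -0.93 for both changes against neither.

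Most Grn reads came from a single transcript, and the drop was seen in it. Grn-201, the full-length coding form of 13 exons, held 91.6% to 98.2% of the reads of the gene, with 992 to 5456 reads per library. It fell by 0.90 on the log2 scale averaged over backgrounds (SE 0.128, edgeR adjusted p = 0.00937). It was the only one of the 22 member transcripts that passed the filter to be called there, where 0.00585% of 51293 transcripts were called. The retained-intron form Grn-206, with 1.70 to 93.8 reads, had a log2 change of -0.98 (SE 0.297, edgeR adjusted p = 1), and the other 8 annotated forms had medians of 0 to 18.6 reads.

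Grn varied more between mice of the same group than most genes of its level. Its residual SD after group and sex was 0.325 on the log2 scale, against a median of 0.093 in 2845 genes of like CPM, of which 97.7% were below it. Psap was at the other end, with a residual SD of 0.047 and 6.35% of 63 genes of like level below it. Sort1 at 0.089 and Tmem106b at 0.069 were near the medians of their classes, and Lrp1 at 0.158 was above 91.1% of 370 genes. The low Grn+/- libraries were replicate 3 of the nontransgenic group at 13.8 CPM and replicate 5 of the hTDP group at 17.2 CPM, while the other 10 lay between 24.7 and 32.9 CPM.

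Within groups, Grn tended to be higher in libraries with more microglial marker RNA. With group means removed, log2 Grn and the mean log2 level of 12 microglial markers had a Pearson r of 0.540 over 24 libraries (permutation within groups, p = 0.0236, adjusted p = 0.270 over 40 relations) and a Spearman rho of 0.652 (permutation p = 0.00119, adjusted p = 0.0476). The r was 0.650 without the 2 libraries farthest in Grn, and within single groups of 6 it was 0.652, 0.260, 0.851 and 0.748 in hTDP Grn+/-, nontransgenic Grn+/-, hTDP Grn+/+ and nontransgenic Grn+/+ mice. The relation thus passed the adjustment by rank and not by r. Each measure was adjusted over its own 40 relations, and no adjustment over both measures together was made. Between genotypes the markers did not follow Grn: their summed level had a median of 409 CPM (363 to 483) in hTDP Grn+/- mice and 416 CPM (370 to 513) in nontransgenic Grn+/- mice, against 393 CPM (334 to 414) in hTDP Grn+/+ mice and 378 CPM (369 to 430) in nontransgenic Grn+/+ mice. All 12 markers had an average log2 change above 0 for Grn+/- against Grn+/+ (median 0.10), where 53.5% of all genes did, and none was called. For the same contrast all 8 astrocyte markers (median 0.09), all 8 endothelial and mural markers (median 0.08) and all 5 blood markers (median 0.97) were above 0. None of 8 oligodendrocyte markers was (median -0.11), and no marker of these lists was called. That oligodendrocyte average joins opposite signs, with 8 of 8 above 0 in nontransgenic mice (median 0.355) and 0 of 8 in hTDP mice (median -0.53). What the level of any of these lists contributes to the Grn values was not tested.

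**Figure D3:**
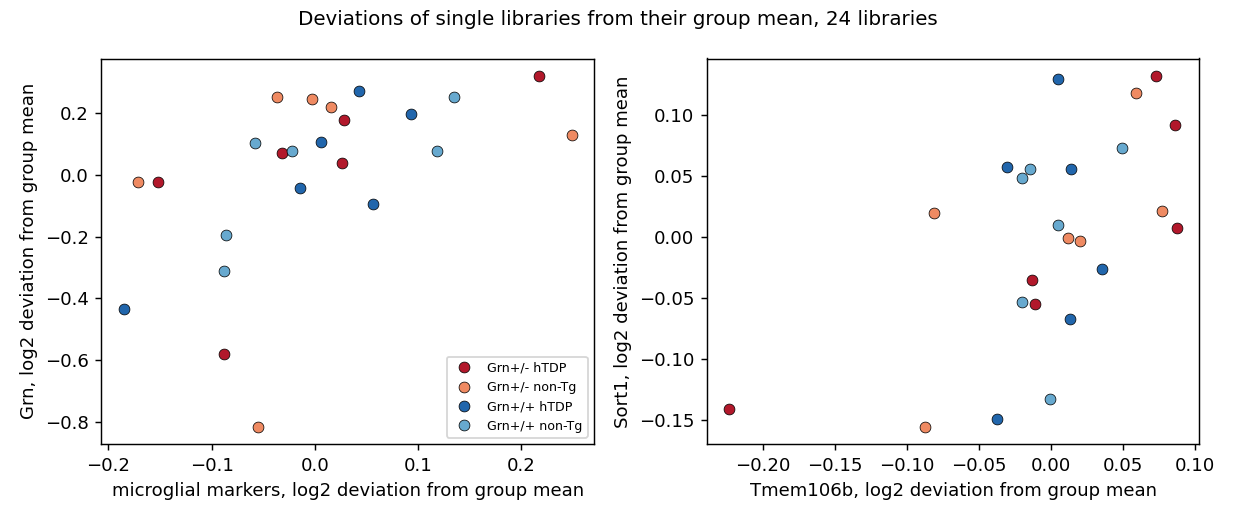
Log2 deviation of each of the 24 libraries from its group mean, Grn against the mean of 12 microglial markers (left) and Sort1 against Tmem106b (right), coloured by group. Grn tends to rise with the markers (r = 0.540), with 2 low Grn+/- libraries at the bottom, and Sort1 with Tmem106b (r = 0.588). Neither r passed adjustment over 40 relations.

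The genes most like Grn over the 24 group-centred libraries, among genes of at least 5 CPM, were Rnase4 (Pearson r = 0.676), Noa1 (0.634), B4galt4 (0.629), Sh3bgrl (0.624) and Naaa (0.621). Rnase4 encodes a secreted ribonuclease and Naaa a lysosomal amidase. These values describe likeness alone and carry no test.

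Grn shares 68 bases of its annotated span with Fam171a2, a protein-coding gene on the opposite strand (chr11:102436981-102447682), and the library protocol does not settle whether strand was kept. Grn-201 ends before that overlap. Fam171a2 averaged 156 ± 7.96 CPM in hTDP Grn+/- mice and 159 ± 9.94 CPM in nontransgenic Grn+/- mice, against 174 ± 12.7 CPM in hTDP Grn+/+ mice and 178 ± 10.1 CPM in nontransgenic Grn+/+ mice (SD, n = 6 each). Its average log2 change was -0.16 (SE 0.035, unadjusted p = 0.000140), which was not called (edgeR adjusted p = 0.426). It was singled out for its position, and the cause of the difference was not tested.

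Sort1 (chr3:108284082-108361511, plus strand) was not called in any comparison. Its lowest, median and highest levels were 598, 653 and 723 CPM in hTDP Grn+/- mice, and 624, 701 and 755 CPM in nontransgenic Grn+/- mice. In hTDP Grn+/+ mice they were 601, 674 and 730 CPM, against 646, 723 and 745 CPM in nontransgenic Grn+/+ mice. All 4 groups overlapped, with both hTDP medians below both nontransgenic medians. Gm12523, an annotated gene on the opposite strand that shares 762 bases with Sort1, averaged 2.36 CPM. The average transgene change was -0.08 on the log2 scale (SE 0.036, 95% interval -0.15 to -0.01, edgeR adjusted p = 0.613), and none of the 5 genes was called there, against 0.11% of all genes. Its average change with the Grn genotype was -0.02 (SE 0.036, interval -0.09 to 0.05). With the transgene on average, none of 8 excitatory neuron markers was above 0 (median -0.07), where 51.6% of all genes were. All 8 oligodendrocyte (median 0.27), all 8 endothelial and mural (median 0.08) and all 5 blood markers (median 0.29) were above 0. Astrocyte (5 of 8), microglial (3 of 12) and inhibitory neuron markers (2 of 6) were mixed, and no marker was called. The oligodendrocyte sign differed by genotype, with 8 of 8 above 0 in Grn+/+ mice (median 0.70) and 0 of 8 in Grn+/- mice (median -0.17). What these lists contribute to the Sort1 values was not tested.

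The form of Sort1 with the 99-base exon took a smaller share of estimated reads in hTDP mice, with a limit that concerns an overlapping transcript. The share is the estimated reads of Sort1-203 over those of Sort1-203 and Sort1-201, at least 33081 per library. These reads are assigned along whole transcripts, and how many of them touched the exon or its junctions is not known. In hTDP Grn+/- mice the share had a lowest, median and highest value of 6.83%, 9.77% and 10.8%, against 10.03%, 11.2% and 11.6% in nontransgenic Grn+/- mice. In hTDP Grn+/+ mice it had 8.67%, 9.65% and 11.6%, against 9.27%, 11.3% and 11.5% in nontransgenic Grn+/+ mice. Among the 12 hTDP libraries, replicate 2 of the Grn+/+ group at 11.6% lay at the top of the nontransgenic range, and replicates 1 and 2 of the Grn+/- group, at 6.83% and 8.41%, were the lowest.

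The difference was -1.76 percentage points in Grn+/- mice (9.36% ± 1.54 in hTDP and 11.1% ± 0.561 in nontransgenic mice, SD, n = 6 each), with an exact two-sided permutation p = 0.0152, or 0.227 adjusted over 15 tests. Without replicate 1 of that hTDP group it was -1.25 points (exact permutation p = 0.0238, adjusted 0.357). In Grn+/+ mice it was -1.10 points (9.87% ± 0.958 in hTDP and 10.98% ± 0.865 in nontransgenic mice, n = 6 each; exact permutation p = 0.0693, adjusted 0.346), and -1.44 points without replicate 2 of the hTDP group (exact permutation p = 0.0152, adjusted 0.114). Averaged over both genotypes, in a test added after these values were seen, it was -1.43 points (exact permutation within genotypes, p = 0.00212, adjusted 0.00637 over 3 exons). It was -1.60 points without replicate 2 of the hTDP Grn+/+ group (exact permutation p = 0.000440) and -1.18 points without replicate 1 of the hTDP Grn+/- group (exact permutation p = 0.00362). The Grn genotype made a difference of -0.51 points in hTDP mice and 0.14 points in nontransgenic mice (exact permutation p = 0.517 and 0.688, n = 6 each), the first being -0.0067 points without replicate 1 of the hTDP Grn+/- group and -0.17 points without replicate 2 of the hTDP Grn+/+ group. The 15 tests and the 3 exons include an Lrp1 exon of 51 bases. Its share was 0 in every library, so its tests could give no difference.

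Another annotated form, Sort1-202, bears on this share. It is a retained-intron transcript whose first exon spans the 99-base exon and the intron after it, so reads inside the exon can be assigned to it instead of Sort1-203. It held 0.821%, 1.34% and 10.2% of Sort1 reads (lowest, median, highest) in hTDP Grn+/- mice, against 0.834%, 1.47% and 1.73% in nontransgenic Grn+/- mice. In hTDP Grn+/+ mice it held 0.814%, 1.29% and 2.79%, against 0.661%, 0.984% and 1.10% in nontransgenic Grn+/+ mice. The high library, replicate 1 of the hTDP Grn+/- group, was the one with the lowest exon share and the lowest Sort1 level, and it had the highest share of retained-intron reads over the whole library, 2.71% against 1.64% to 2.22% in the others. When Sort1-202 was counted with the exon, an alternative chosen after seeing the data, the average transgene difference was -0.40 points and the call was lost (exact permutation p = 0.541).

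Tests over all transcripts give the same pair of forms without a call. Averaged over both Grn genotypes, Sort1-203 had a log2 change of -0.30 for hTDP against nontransgenic mice (SE 0.078, unadjusted p = 0.000775, edgeR adjusted p = 0.497). Sort1-202 had one of 0.78 (SE 0.323, unadjusted p = 0.0243) and Sort1-201 one of -0.08 (SE 0.046). Of 51293 transcripts, 0.039% were called in that comparison and none of them belonged to these 5 genes. A test of transcript usage per gene kept only forms with at least 5% of the reads of their gene. Grn, Tmem106b and Lrp1 had a single such form and were not tested, and Sort1-202 was left out. Neither Sort1 (edgeR adjusted p = 1) nor Psap was called, against 0.165% of 7876 genes.

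**Figure D4:**
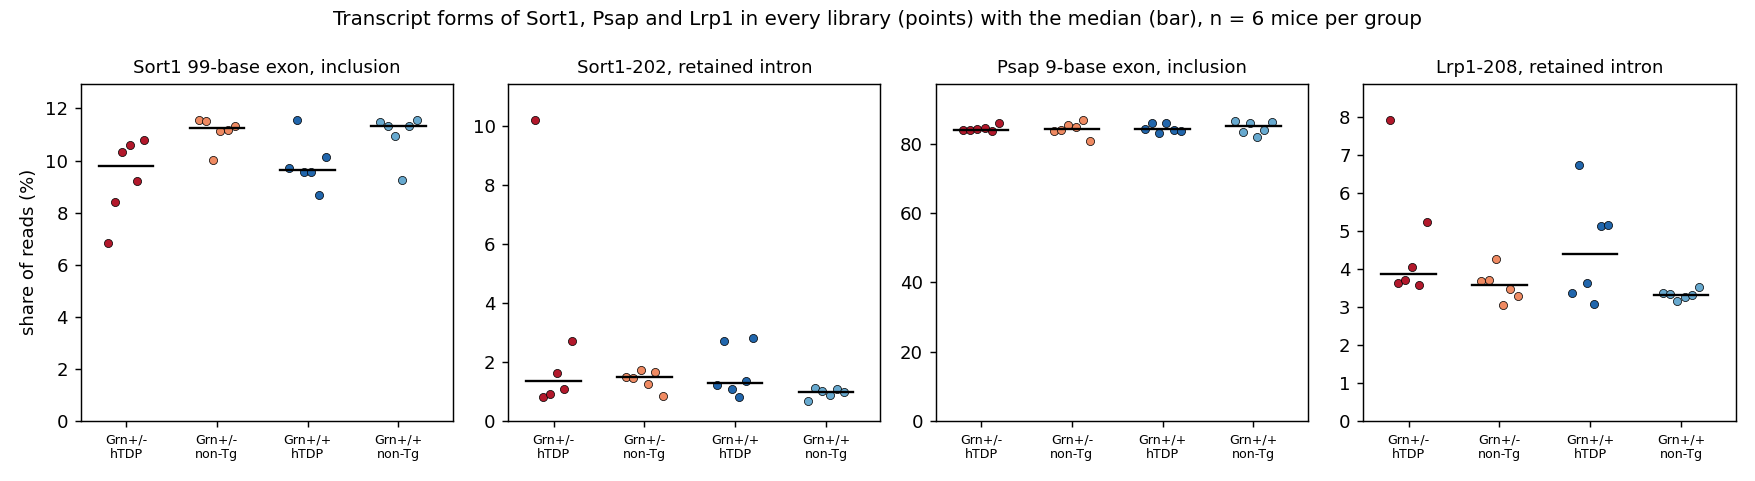
Share of estimated reads, in percent (vertical axis, from 0), in every library (points) by group, with the median as a bar. The panels show the form with the 99-base Sort1 exon, Sort1-202, the form with the 9-base Psap exon and Lrp1-208. hTDP medians for the Sort1 exon are 9.77% and 9.65%, against 11.2% and 11.3% in nontransgenic mice, and a single hTDP Grn+/- library stands at 10.2% for Sort1-202.

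Among the genes most like Sort1 over the group-centred libraries were Man1a2, an early glycan-trimming enzyme (r = 0.890), Gpr158 (0.888), Gpr26 (0.878) and Kcnq5, a potassium channel subunit (0.845). Sort1 tended to rise and fall with Tmem106b within groups, at a Pearson r of 0.588 (permutation p = 0.00248, adjusted p = 0.0992) and a rho of 0.501 (permutation p = 0.0219, adjusted p = 0.196), over 24 libraries. Neither passed the adjustment. Without the 2 libraries farthest in Sort1 the r was 0.533. That check kept replicate 1 of the hTDP Grn+/- group, which deviated by -0.141 in Sort1 and by -0.223 in Tmem106b. Within groups the r was 0.854 in hTDP Grn+/- and 0.667 in nontransgenic Grn+/- mice, and 0.242 in hTDP Grn+/+ and 0.289 in nontransgenic Grn+/+ mice. Sort1 and the excitatory neuron markers had an r of 0.508 (permutation p = 0.0209, adjusted p = 0.270).

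Psap (chr10:60277627-60302597, plus strand), the precursor of the saposins that activate lysosomal lipid hydrolases, stayed within a narrow band. Its means were 1701 ± 52.8 CPM in hTDP Grn+/- mice, 1704 ± 46.1 CPM in nontransgenic Grn+/- mice, 1702 ± 52.4 CPM in hTDP Grn+/+ mice and 1707 ± 63.4 CPM in nontransgenic Grn+/+ mice (SD, n = 6 each). The 24 libraries spanned 1619 to 1802 CPM with full overlap between groups. The 95% interval of its log2 change lay between -0.05 and 0.04 for the average Grn genotype effect and between -0.05 and 0.04 for the average transgene effect.

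The form of Psap with the 9-base exon took most of the estimated reads in every mouse. Its share, the reads of Psap-205 over those of Psap-205, Psap-202 and Psap-203, was 84.4% ± 0.838 in hTDP Grn+/- and 84.2% ± 2.04 in nontransgenic Grn+/- mice, and 84.5% ± 1.17 in hTDP Grn+/+ and 84.7% ± 1.86 in nontransgenic Grn+/+ mice (SD, n = 6 each). At least 98198 estimated reads per library, assigned along whole transcripts, stood behind the share, and the libraries spanned 80.9% to 86.9%. How many of these reads touched the 9-base exon or its junctions is not known. The differences lay between -0.52 and 0.22 points over the 5 comparisons of 6 with 6 (exact permutation p = 0.654 to 0.870). The genes most like Psap were Nhp2 (r = 0.885), Rcan3 (0.838), Rab3b (0.824), Nipal3 (0.811) and Tbc1d9b (0.809).

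Tmem106b (chr6:13069759-13089269, plus strand) was also not called. Its lowest, median and highest levels were 149, 178 and 185 CPM in hTDP Grn+/- mice and 171, 184 and 191 CPM in nontransgenic Grn+/- mice. In hTDP Grn+/+ mice they were 178, 184 and 187 CPM, against 185, 187 and 194 CPM in nontransgenic Grn+/+ mice. The groups overlapped, and the library at 149 CPM was again replicate 1 of the hTDP Grn+/- group. Mice with both changes differed from mice with neither by a log2 change of -0.10 (SE 0.040, 95% interval -0.19 to -0.02, edgeR adjusted p = 0.435). Exact permutation of CPM gave p = 0.0130 for that pair and p = 0.0216 for hTDP against nontransgenic Grn+/+ mice (182 ± 3.57 and 188 ± 3.50 CPM, SD, n = 6 each), the only p-values under 0.05 among 25 such tests besides those of Grn. Adjusted over the 25 tests they were 0.0812 and 0.108, so neither passed.

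Averaged effects on Tmem106b were -0.05 for the Grn genotype (SE 0.028, interval -0.11 to 0.00) and -0.05 for the transgene (SE 0.028, interval -0.11 to 0.01). Nearly all its reads, 99.35% to 99.96%, came from the coding form Tmem106b-201 of 9 exons, so no switch between forms could be seen at this depth. Likest to it were Impad1, a Golgi phosphatase (r = 0.901), Dnajb14 (0.898), Atf2 (0.877), Fbxw11 (0.865) and Pcdhac2 (0.861).

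Lrp1 (chr10:127538161-127621148, minus strand) was not called either, and its sign for the transgene depended on the unit. Its lowest, median and highest levels were 403, 480 and 555 CPM in hTDP Grn+/- mice and 430, 514 and 565 CPM in nontransgenic Grn+/- mice. In hTDP Grn+/+ mice they were 412, 451 and 519 CPM, against 389, 479 and 559 CPM in nontransgenic Grn+/+ mice. In counts the average transgene change was -0.06 (SE 0.060, 95% interval -0.19 to 0.06, edgeR adjusted p = 0.818), while on log2(TPM + 0.5) it was 0.15 (limma adjusted p = 0.614).

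TPM gives more weight than counts to Lrp1-208, a retained-intron form of 763 bases at the 3' end of the gene. It held 3.05% to 7.92% of Lrp1 reads but had a median of 68.7 TPM, against 57.4 TPM for the coding form Lrp1-201 of 89 exons. Its share had a lowest, median and highest value of 3.56%, 3.87% and 7.92% in hTDP Grn+/- mice, against 3.05%, 3.57% and 4.25% in nontransgenic Grn+/- mice. In hTDP Grn+/+ mice the values were 3.06%, 4.38% and 6.74%, against 3.15%, 3.31% and 3.51% in nontransgenic Grn+/+ mice. The 5 highest libraries, at 5.13% or more, were all hTDP, the top 2 being replicate 1 of the Grn+/- group and replicate 2 of the Grn+/+ group, the library with few genes listed. Retained-intron forms of all genes together held 2.71% of reads in that replicate 1, the highest of all libraries, and 1.82% in that replicate 2. This ordering of libraries carries no test, and other retained-intron forms were not ranked in the same way. The log2 change of Lrp1-208 with the transgene, averaged over Grn genotypes, was 0.34 (SE 0.136, 95% interval 0.06 to 0.62, edgeR adjusted p = 0.845), and 0.29 without that replicate 2. Lrp1-205, a nonsense-mediated decay form, had 0.49 (SE 0.209, edgeR adjusted p = 0.865), and neither was called.

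Lrp1-207, a short form whose middle exon of 51 bases Lrp1-201 skips, was listed at 0 reads in all 24 libraries. The genes most like Lrp1 were Ubr4 (r = 0.901), Dync1h1, the cytoplasmic dynein heavy chain (0.881), Trrap (0.869), Pclo (0.835) and Birc6 (0.821). All 5 encode very large proteins.

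Around these genes, 68 genes of the same routes were listed in 6 groups and 66 could be tested, Slpi and Lrp2 having too few reads. None of the 66 was called, higher or lower, in any of the 9 comparisons. For Grn+/- against Grn+/+ averaged over backgrounds, 35 of 66 had a log2 change above 0 with a median of 0.00, against 53.5% of all genes and a median of 0.01. The 3 of smallest p were Gpr37l1, a receptor reported to bind prosaposin (0.09, SE 0.036), Vps35, a retromer subunit that recycles sorting receptors (-0.08, SE 0.034), and Gm2a, the activator of ganglioside breakdown (0.07, SE 0.029), each at an edgeR adjusted p of 0.926.

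By role, 6 of 8 tested genes that cut or protect progranulin, such as cathepsins, were above 0 with the Grn genotype (median 0.03). Sorting receptors and their adaptors had 5 of 17 above 0 (median -0.02), and other lipoprotein receptors 6 of 12 (median 0.00). Surface receptors of progranulin and prosaposin had 6 of 7 above 0 (median 0.09), saposin-dependent enzymes 8 of 12 (median 0.03) and the Tmem106 family with its lysosomal partners 4 of 10 (median 0.00). Gla, the alpha-galactosidase, had a log2 change of -1.55 (SE 0.825, edgeR adjusted p = 0.926) at a mean level of 0.505 CPM, so its value rests on few reads.

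For hTDP against nontransgenic mice averaged over Grn genotypes, 24 of the 66 were above 0 (median -0.01), against 51.6% of all genes. Map6, a microtubule protein that binds Tmem106b, had a log2 change of -0.08 (SE 0.025, unadjusted p = 0.00262, edgeR adjusted p = 0.389). Atp6v0a1, a subunit of the proton pump of lysosomes, had -0.05 and Lrp11 -0.07 (edgeR adjusted p = 0.613 each). By role, the genes above 0 with the transgene numbered 2 of 8 for processing and protection, 6 of 17 for sorting receptors, 2 of 12 for lipoprotein receptors, 4 of 7 for surface receptors, 5 of 12 for saposin-dependent enzymes and 5 of 10 for the Tmem106 family and partners. Map6 was among the 3 of smallest p in both Grn genotypes. Its change was -0.08 in Grn+/- mice (edgeR adjusted p = 0.9999) and -0.09 in Grn+/+ mice (edgeR adjusted p = 0.608). Both comparisons come from the same fit, and the average above is made of them, so they add no separate evidence. For the interaction the 3 of smallest p were Ctsd, the cathepsin that trims progranulin (-0.10, SE 0.043), Tnfrsf1a, a receptor of tumour necrosis factor (-0.40, SE 0.183), and Scarb2, a lysosomal membrane protein that carries glucocerebrosidase (-0.14, SE 0.066), each at an edgeR adjusted p of 1.

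**Figure D5:**
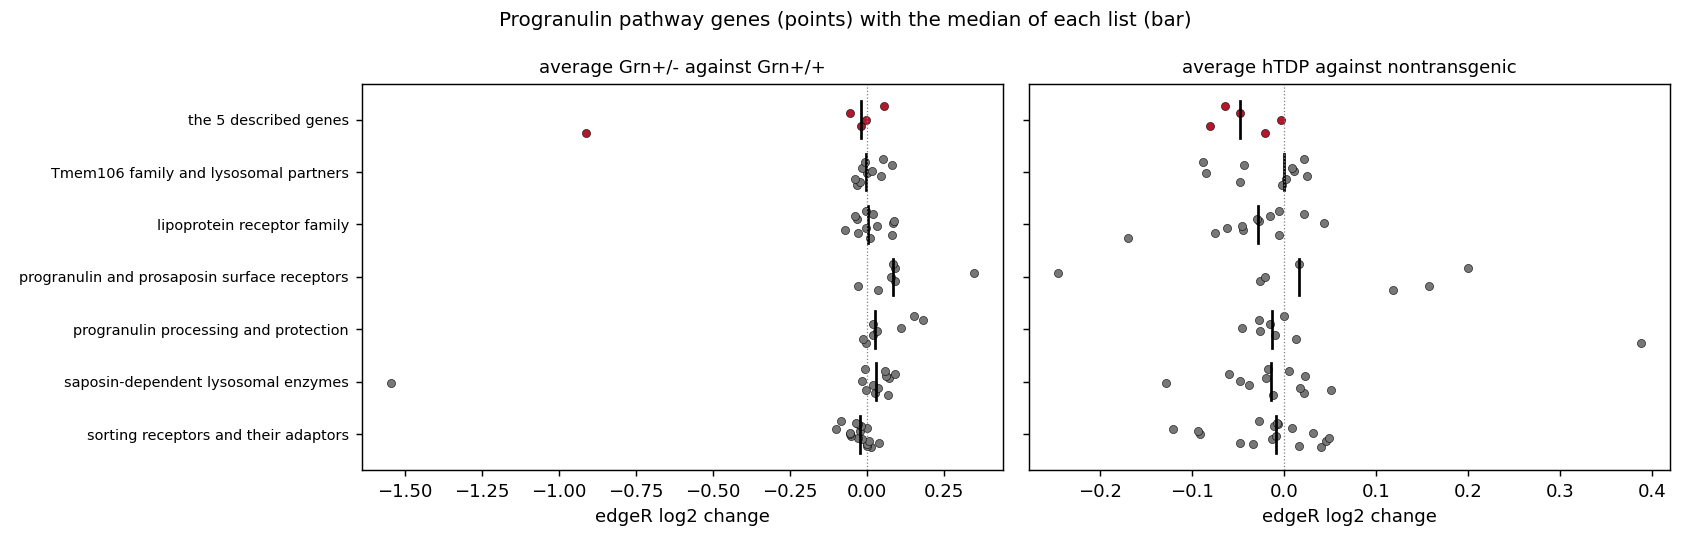
edgeR log2 change (horizontal axis) of the 5 genes (top row) and of the 66 tested genes of 6 lists (other rows), with the median of each row as a bar, for Grn+/- against Grn+/+ (left) and hTDP against nontransgenic mice (right), each averaged over the other factor. Grn at -0.91 stands apart on the left together with Gla at -1.55, a gene of 0.505 CPM, and the horizontal scales of the panels differ.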

How the data were processed

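Per the file headers, the authors deposited 1 Salmon table per library with expected counts (estimated reads per transcript) and TPM values. Tools listed in the submitters' processing notes are Salmon, STAR, SAMtools and DESeq2. Their versions and roles, like the genome build and annotation, were not given in the sources used here. Identifiers without versions were matched to GENCODE M21 (GRCm38), which placed 138032 transcripts (92.4%), and 33 of the 34 transcripts of the 5 genes have the same length there.

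Expected counts were summed per gene, rounded and fitted with edgeR 4.0.16 in R 4.3.3 (TMM scaling, default low-count filter, terms for group and sex, 24 libraries). Transcripts were tested likewise, and usage with diffSpliceDGE for transcripts of at least 5% of their gene. Shares and CPM were compared by exact permutation, and relations with 100000 permutations within groups. Scripts were tested on simulated data. P-values weigh a difference or relation against the spread between mice. Alternatives used DESeq2 1.42.0 and limma 3.58.1, other scaling, filters, covariates and left-out libraries. Named genes are the 5, any called gene of the 6 lists or else the 3 of smallest p, and the 5 most alike, of which 1 is not reported here. Members and lists were chosen with earlier results of these data known.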

Additional observations from a re-analysis of the deposited data

Results flagged for a closer look

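Within groups of 6, the gap between the outermost library and its neighbour exceeded Dixon's 95% limit (0.625 of the range) in 7 of 40 groups examined. Chance gives about 1 in 20 for independent groups. These are not independent, since the same libraries recur across items, so the count cannot show an excess over chance. Grn was lowest at 13.8 CPM in replicate 3 of the nontransgenic Grn+/- group, the next being 24.7 CPM. Psap was highest at 1802 CPM in replicate 5 of the hTDP Grn+/+ group. Tmem106b was lowest at 149.1 CPM in replicate 1 of the hTDP Grn+/- group, and highest at 194.2 CPM in replicate 4 of the nontransgenic Grn+/+ group. The share of the 99-base Sort1 exon was lowest at 10.03% in replicate 3 of the nontransgenic Grn+/- group and at 9.27% in replicate 4 of the nontransgenic Grn+/+ group. Sort1-202 held 10.21% of Sort1 reads in replicate 1 of the hTDP Grn+/- group, the next being 2.70%.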

How the results depend on the processing

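No paired analysis was possible because the labels number no replicates, so libraries of different groups cannot be matched by number. Mice of different groups share ages in part (9.44 months in all 4 groups), and the fit with age as a factor compares mice of the same age. Of the nontransgenic Grn+/- mice, only replicate 2 at 10.79 months and replicate 3 at 9.44 months share an age with another group. Comparisons with that group therefore rest on these mice in this fit, and replicate 3 was its lowest Grn library at 13.8 CPM. Averaged over backgrounds, Grn was called under every alternative run, with log2 changes of -1.15 to -0.85. In nontransgenic mice its call was lost with age as a linear term (-0.96, 0 of the 5 genes called), age as a factor (-1.42, 0 called) and a fit of only the groups compared (-0.98, 0 called), and leaving out 1 library gave -1.04 to -0.85 with 0 to 1 gene called. In hTDP mice DESeq2 called it (-0.84, 1 called, adjusted p = 0.000740), and leaving out 1 library gave -0.93 to -0.74 with 0 to 1 called, the call being without replicate 3 of the nontransgenic Grn+/- group. For both changes against neither, the call was lost with age as a factor (-0.91, 0 called) and in a fit of only the groups compared (-0.94, 0 called), and leaving out 1 library gave -1.003 to -0.83 with 0 to 1 called, the call being lost without replicates 1, 3 or 4 of the hTDP Grn+/- group or replicates 1, 3, 5 or 6 of the nontransgenic Grn+/+ group. The causes were not tested.

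Signs of values near 0 turned. With age as a factor, Psap had average changes of 0.0055 (Grn genotype) and 0.0046 (transgene), 0.010 for both changes against neither, and Grn 0.24 for the average transgene effect. Lrp1 had 0.19 (average transgene) and 0.28 (both changes) in length-scaled counts, and 0.15 and 0.22 in TPM. Leaving out 1 library, the average transgene change of Grn was -0.091 to 0.030 and its transgene change in Grn+/- mice -0.089 to 0.15. Likewise Lrp1 had -0.067 to 0.034 for both changes, and Psap -0.0085 to 0.0060 (Grn genotype), -0.014 to 0.0034 (transgene) and -0.019 to 0.0084 (both). The Psap exon share differed by -0.0029 to 0.21 points with the Grn genotype in hTDP mice and by -0.14 to 0.057 points with the transgene on average. With Sort1-202 counted, the Sort1 exon differed by 0.64 points with the Grn genotype in hTDP mice, 0.19 for both changes and -0.40 for the average transgene effect, which lost its call. Of the pathway genes 0 to 1 were called between females and males when 1 library was left out, the gene being Lrp8 without replicate 5 of the nontransgenic Grn+/- group, and 0 otherwise. Forms with a few reads, such as most minor Grn forms, could not be compared at this depth.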
